A study of Mus musculus with 28 samples.

Results

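Interferon gamma (IFNG) given alone to MC38 cells was compared with no treatment, over all genes of the table of cells treated in vitro. MC38 is a mouse colon carcinoma line of C57BL/6 origin. The comparison holds 4 of the 28 samples of the series and 12721 genes. The samples are 2 libraries of cells given IFNG for 6 hours and 2 of untreated cells, for which no time is recorded. The study asked how MC38 cells respond to TNF, to IFNG, to both cytokines together and to OT1 T cells, which are CD8 T cells with a transgenic receptor for an ovalbumin peptide. The cytokine doses are not given in the sources used here, and a single line stands for the tumour. Of the other groups, the same table holds 2 libraries each of cells given TNF + IFNG, of cells given TNF, each for 6 hours, and of cells given supernatant from a co-culture, for which no time is recorded. A second table, normalized separately, holds 3 libraries each of MC38 kept for 6 hours with OT1 cells plus isotype antibody, of the same co-culture with anti-PD1, and of MC38 alone, for which no time is recorded. Nothing in the labels says whether the 2 libraries of a group are separate cultures, and p-values therefore reflect only how far these samples vary, a variation that may be technical.

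IFNG is made mainly by activated T cells and natural killer cells. It binds a receptor of IFNGR1 and IFNGR2 chains, whose kinases JAK1 and JAK2 start the signal. It reaches genes through a palindromic element called GAS (gamma activated sequence), and among the first of these genes is Irf1, which encodes a transcription factor. IRF1, and complexes that hold STAT2 and IRF9, bind a second element, the ISRE (interferon stimulated response element), in the promoters of antiviral, antigen presentation and chemokine genes. In tumour cells the pathway is known for raising MHC class I display and the PD1 ligand, and for slowing growth.

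The values are log2 CPM (read counts scaled to a common library total) from libraries that read the 3' end of transcripts. Depth was implied roughly from the number of distinct values below the median of a library and from that median. It came to about 11200000 and 7950000 assigned reads in the IFNG libraries and about 6490000 and 7690000 in the untreated ones. The 2 libraries of a group differed by a median of 0.17 (log2) per gene with IFNG and of 0.21 without it. Of the 17 epithelial markers only Cdh1 was in the table, whereas 12 of 17 mesenchymal markers were, with a summed level of 1552 and 1570 CPM with IFNG and of 1866 and 1924 CPM without it. Of 20 T cell and natural killer cell markers 3 were in the table (Lck, Gzma and Il2), with a summed level of 7.51 and 4.68 CPM in IFNG libraries and of 3.75 and 4.68 CPM in untreated ones, and Cd3e, Cd8a and Ptprc, which define T cells and leukocytes, were not listed.

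IFNG raised 45 of the 12720 genes tested, 0.354% of them, and no gene was lower at the same threshold (0%), an adjusted p under 0.05 in limma over all genes. At an unadjusted p under 0.05 there were 646 higher and 715 lower genes. The 45 genes are dominated by interferon-induced GTPases, transcription factors such as Irf1, Irf9 and Stat2, the chemokines Cxcl9 and Cxcl10, the peptide transporter Tap1 and the PD1 ligand Cd274. Their log2 fold changes ran from 1.04 to 6.48 with a median of 2.87, against a median of 0.04 over all tested genes. In none of them did the groups overlap, and the gap between the lowest IFNG library and the highest untreated one was over 1 log2 unit in 43 of the 45. The same libraries chose these genes, so this separation follows largely from the choice. The share of all tested genes without overlap was not counted. Together the 45 genes made up 3173 and 3289 CPM in the IFNG libraries, against 584 and 580 CPM in the untreated libraries. These are 0.318% and 0.329% of the summed normalized values of a library with IFNG, and 0.0585% and 0.0581% without it. Most were low before treatment. The untreated mean of the 45 had a median at the 19.3 percentile of all genes, and the IFNG mean at the 71.3 percentile. Of the 45, 27 stayed past the threshold in every alternative run, including the removal of any 1 of the 10 libraries, and without the first IFNG library 29 genes passed in all.

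**Figure D1:**
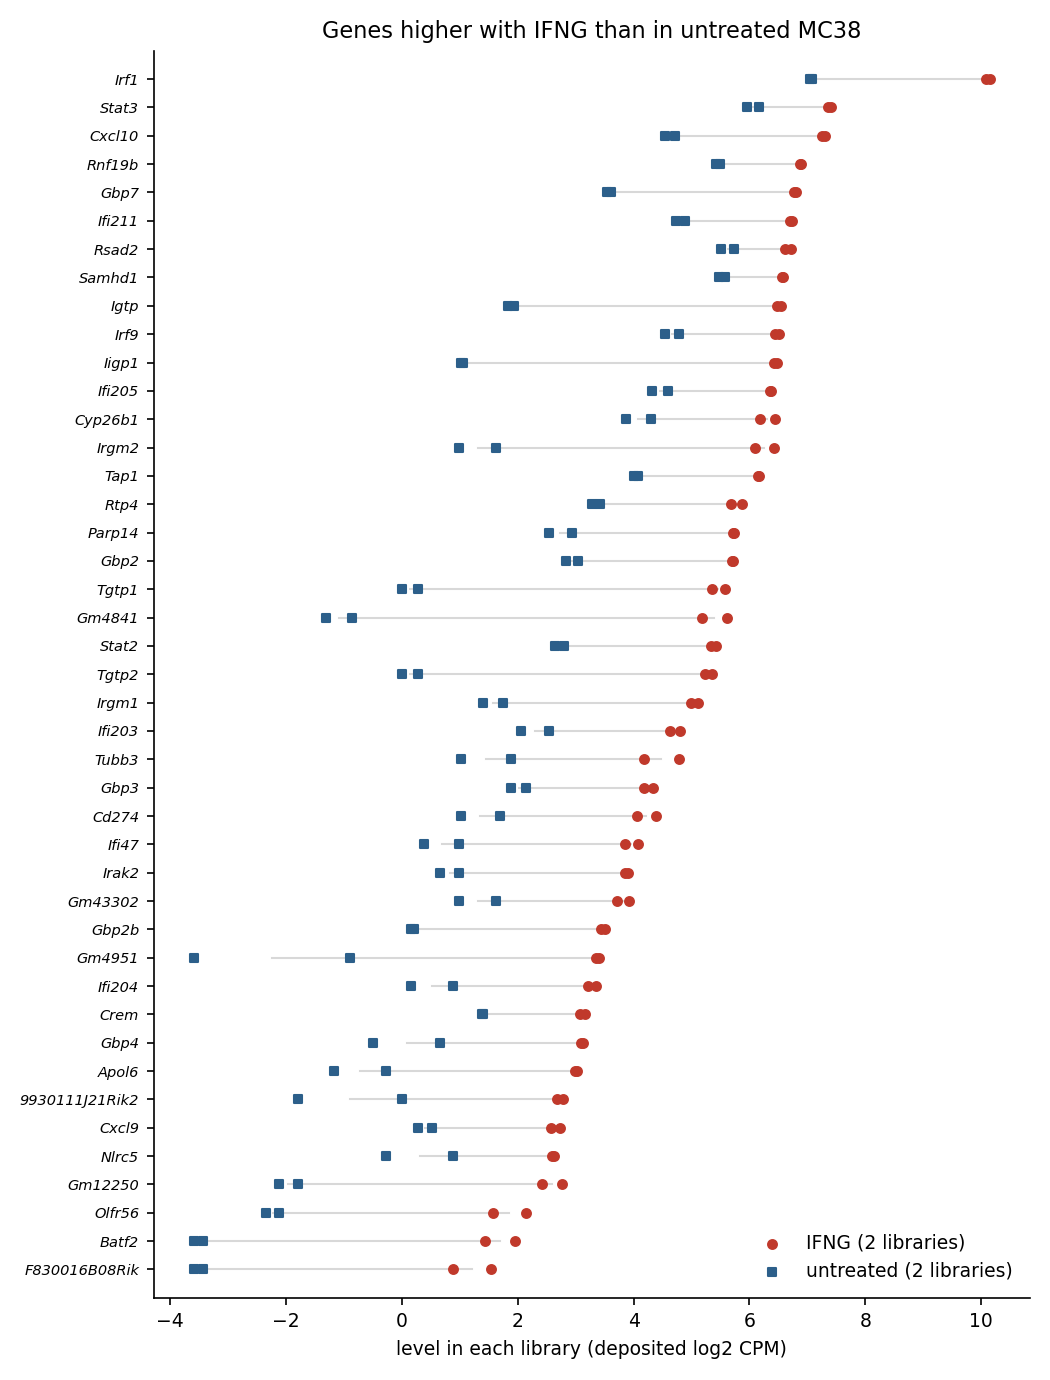
Level of 43 of the 45 genes in each of the 4 libraries (log2 CPM), with IFNG as red circles, untreated as blue squares and a grey line between the group means. In every gene both IFNG libraries lie to the right of both untreated ones, and these libraries chose the genes. The untreated libraries lie furthest apart in Gm4951, where 1 of them is at its lowest value. They lie close together in Batf2, where both are.

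**Figure D2:**
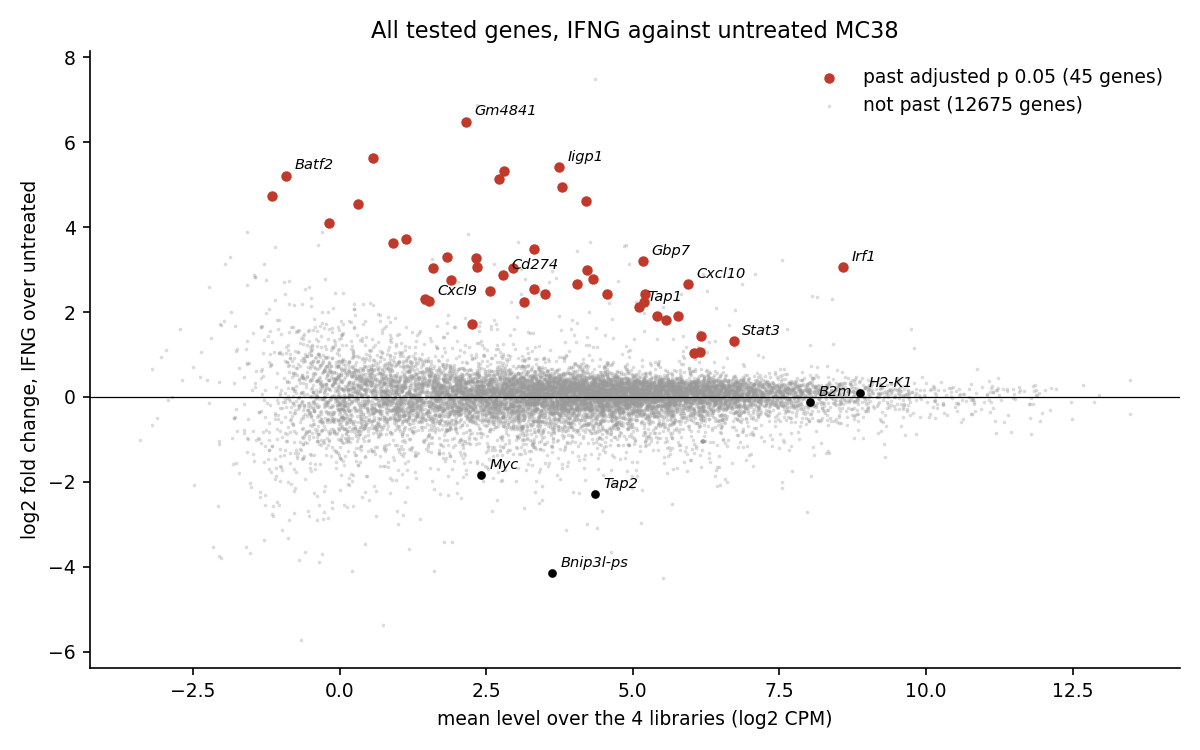
Log2 fold change of IFNG over untreated against the mean level of the 4 libraries (log2 CPM), 1 point per gene. The 45 genes past the threshold, in red, all lie at 1.04 or above, and none of the lower genes passed (black points are named genes that did not pass).

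The transcription factor gene Irf1 had the smallest p-value. Its log2 level was 10.08 and 10.15 with IFNG, against 7.04 and 7.07 without it, a log2 fold change of 3.06 ± 0.12 (SE, adjusted p = 1.49e-05). In linear terms that is 1079 and 1137 CPM against 132 and 135 CPM. Igtp, a GTPase of the immunity related family, stood at 6.54 and 6.48 with IFNG against 1.83 and 1.94 without it (4.62 ± 0.19, adjusted p = 1.49e-05). Both libraries of a group lay within 0.12 log2 units of each other in these genes.

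The promoters of the 6 genes with the smallest p-values that have an entry in the RefSeq promoter table (GRCm38.p6) and are printed here show the elements described above, in windows from 250 bases before to 50 bases after the transcription start. Capitals mark every match to TTCNNNGAA, used for GAS, which reads the same on both strands, and to GAAANNGAAA, used for the ISRE core, which appears as TTTCNNTTTC where it lies on the other strand. Irf1 has a second RefSeq start, whose window holds no match.
Irf1 promoter (chr11:53769764-53770063, plus strand): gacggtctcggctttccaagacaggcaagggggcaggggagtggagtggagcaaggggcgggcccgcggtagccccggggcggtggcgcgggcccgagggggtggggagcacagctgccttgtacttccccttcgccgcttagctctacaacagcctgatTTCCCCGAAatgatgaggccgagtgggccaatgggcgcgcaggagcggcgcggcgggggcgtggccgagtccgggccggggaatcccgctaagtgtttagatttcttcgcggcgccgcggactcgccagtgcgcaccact
Igtp promoter (chr11:58199306-58199605, plus strand): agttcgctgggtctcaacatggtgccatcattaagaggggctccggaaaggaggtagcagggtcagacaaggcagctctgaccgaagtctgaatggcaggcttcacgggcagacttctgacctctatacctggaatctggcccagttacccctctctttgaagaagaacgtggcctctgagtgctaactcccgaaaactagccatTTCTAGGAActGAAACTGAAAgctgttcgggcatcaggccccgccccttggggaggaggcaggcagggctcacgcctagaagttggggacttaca
Tgtp1 promoter (chr11:48992197-48992496, minus strand): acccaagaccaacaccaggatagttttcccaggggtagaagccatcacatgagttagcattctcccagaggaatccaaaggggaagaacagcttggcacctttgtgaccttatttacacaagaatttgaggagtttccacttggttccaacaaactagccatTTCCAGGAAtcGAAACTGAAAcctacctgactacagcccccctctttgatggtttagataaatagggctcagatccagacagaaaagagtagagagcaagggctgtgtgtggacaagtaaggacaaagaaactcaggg
Tgtp2 promoter (chr11:49064163-49064462, minus strand): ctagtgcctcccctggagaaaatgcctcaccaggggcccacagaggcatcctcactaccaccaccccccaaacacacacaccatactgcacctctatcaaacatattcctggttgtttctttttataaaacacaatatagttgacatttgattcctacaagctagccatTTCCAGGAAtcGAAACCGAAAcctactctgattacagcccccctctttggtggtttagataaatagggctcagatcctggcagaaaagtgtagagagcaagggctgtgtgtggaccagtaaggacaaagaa
Gbp7 promoter (chr3:142530086-142530385, plus strand): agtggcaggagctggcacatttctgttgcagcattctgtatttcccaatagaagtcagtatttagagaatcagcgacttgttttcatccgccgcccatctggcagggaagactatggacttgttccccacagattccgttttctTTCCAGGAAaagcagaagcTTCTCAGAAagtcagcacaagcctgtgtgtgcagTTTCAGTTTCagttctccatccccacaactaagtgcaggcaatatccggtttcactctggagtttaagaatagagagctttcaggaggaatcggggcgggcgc
Gbp2 promoter (chr3:142620413-142620712, plus strand): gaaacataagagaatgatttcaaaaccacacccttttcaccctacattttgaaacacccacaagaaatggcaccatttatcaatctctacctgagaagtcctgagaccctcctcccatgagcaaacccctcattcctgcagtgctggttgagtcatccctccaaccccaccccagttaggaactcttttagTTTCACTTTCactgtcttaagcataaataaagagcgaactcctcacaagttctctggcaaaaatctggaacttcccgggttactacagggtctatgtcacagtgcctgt

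The Irf1 window held a GAS match and no ISRE match, the Gbp2 window an ISRE match and no GAS match, and the other 4 windows both. Of the 45 genes 30 had an entry in the table. ISRE matches were found in 16 of these 30, or 53.33%, against 320 of the 8646 tested genes with an entry, or 3.7%. GAS matches were found in 8, or 26.67%, against 698, or 8.07%, and both motifs in 6, or 20.0%, against 44, or 0.51%. Stat2, Cxcl10 and Rsad2 apart, the genes with an ISRE match were interferon-induced GTPase genes or Ifi203, Ifi205 and Ifi211. All 6 genes with both motifs were of the GTPase families. Related genes thus make up most of these counts and are not separate cases. The 20 ISRE matches began between 222 bases before and 23 bases after a start, 14 of them within the 100 bases before it, and 7 of 9 GAS matches began within those 100 bases. Among the 12 genes with neither match in their windows were Tap1, Irf9, Cxcl9, Cd274 and Stat3. A match is a description of letters and says nothing of binding.

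In 4 of the 30 genes a GAS match was followed after exactly 2 bases by an ISRE match on the same strand. All 4 encode immunity related GTPases. The same spacing was found in 5 of the 8646 tested genes with an entry, or 0.058%, and the remaining one, Gm12185, is a GTPase gene that overlaps Tgtp1. The stretches are shown because the pair was noticed in the printed promoters after their values were seen, and Irgm2 was added for it.
Igtp pair (chr11:58199501-58199541, plus strand): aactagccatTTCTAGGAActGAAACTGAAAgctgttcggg
Irgm2 pair (chr11:58214892-58214932, plus strand): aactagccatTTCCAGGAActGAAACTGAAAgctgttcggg
Tgtp1 pair (chr11:48992304-48992344, minus strand): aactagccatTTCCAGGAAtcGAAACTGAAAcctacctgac
Tgtp2 pair (chr11:49064263-49064303, minus strand): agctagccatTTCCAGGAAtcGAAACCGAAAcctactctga

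These stretches matched at 40 of 41 positions between Igtp and Irgm2, and at 34 of 41 between Tgtp1 and Tgtp2. Between Igtp and Tgtp1 they matched at 31 of 41. The pairs began 45 to 88 bases before the start. Gm12185 stood at 1.49 and 1.38 with IFNG, against −3.44, the lowest value of its library, and −0.87 without it, and did not pass (adjusted p = 0.204).

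The gene lists used from here on were chosen with earlier results of these data known. Their counts and medians may follow partly from that choice. At the head of the pathway no gene passed. The receptor chains Ifngr1 and Ifngr2 and the kinases Jak1, Jak2 and Tyk2 had log2 fold changes between −0.23 and 0.40, with a median of 0.11. Jak2, the kinase bound to IFNGR2, was the highest of the 5, at 4.34 and 4.34 with IFNG against 4.00 and 3.88 without it (adjusted p = 0.449). Downstream of the kinases, Stat2, a component of an ISRE-binding complex, stood at 5.33 and 5.42 against 2.79 and 2.65 untreated (2.65 ± 0.18, adjusted p = 0.000267). Stat3, which mainly serves cytokines of the IL-6 family, rose less, to 7.35 and 7.41 against 5.95 and 6.17 untreated (1.32 ± 0.16, adjusted p = 0.00685). Stat5a, Stat5b and Stat6 lay between −0.55 and 0.09 and did not pass. Stat3 overlaps Stat5a, so reads may have been split between them. Stat3 no longer passed without either IFNG library or without the first untreated library (adjusted p up to 0.0895).

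Of 12 IRF factors and transactivators 4 rose, with a median of 1.11. Besides Irf1 these were Irf9, the DNA-binding partner of STAT2, at 6.51 and 6.44 with IFNG against 4.54 and 4.78 without it (1.81 ± 0.16, adjusted p = 0.00102), Batf2, a basic leucine zipper factor, and Nlrc5, the transactivator of MHC class I genes. Batf2 stood at 1.44 and 1.95 with IFNG, and both untreated libraries were at their lowest value (−3.44 and −3.60), so no fold is given. It was lost without the second IFNG library (adjusted p = 0.0542). Nlrc5 stood at 2.63 and 2.59 against 0.89 and −0.27 untreated (2.30 ± 0.37, adjusted p = 0.0477). That call is the least secure of the 45, since it was lost in 13 of 19 alternatives, with an adjusted p of up to 0.309. Irf7, the main regulator of type I interferon genes, stood at 2.67 and 2.32 against 0.66 and 0.99 untreated and did not pass (1.67 ± 0.42, adjusted p = 0.314), and Irf8, with an untreated library at its lowest value, did not pass either (adjusted p = 0.439).

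None of 15 feedback inhibitors passed, and their median was 0.06. The highest were Usp18, which blocks the type I interferon receptor, at 3.43 and 3.66 with IFNG against 1.40 and 2.05 without it (1.82 ± 0.31, adjusted p = 0.0705), and Socs1, which inhibits the JAK kinases, at 5.83 and 6.08 against 4.23 and 4.59 untreated (1.54 ± 0.32, adjusted p = 0.156). The groups did not overlap in either gene, but how common this was over all tested genes was not counted. The other 13, among them Socs3 and the phosphatases Ptpn1, Ptpn2 and Ptpn11, lay between −0.52 and 0.74.

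The interferon-induced GTPases make up 16 of the 45 genes by the lists used here. Guanylate binding proteins coat and break open pathogens and their vacuoles, and 5 of 7 measured members rose (median 2.77). Gbp7 stood at 6.77 and 6.80 with IFNG against 3.61 and 3.55 without it (3.21 ± 0.16, adjusted p = 2.22e-05), and Gbp2 at 5.70 and 5.72 against 2.83 and 3.04 (2.77 ± 0.17, adjusted p = 0.000153). Gbp2b, Gbp3 and Gbp4 rose by 2.24 to 3.29 on the log2 scale. Gbp8 and Gbp9 did not pass (1.33 ± 1.12 and 1.87 ± 0.46). Gbp4 overlaps both of them in the annotation, and it was lost without either IFNG library (adjusted p up to 0.0895). Gm43302, which lies beside Gbp4 and overlaps Gbp6 and Gbp10, rose as well (2.50 ± 0.38, adjusted p = 0.0319), but was lost in 8 of 19 alternatives (up to 0.25).

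The immunity related GTPases act in mouse cells against vacuoles of intracellular pathogens, and 11 of 15 measured members rose, with a median of 4.62. Gm4841 was at 5.18 and 5.61 with IFNG and at −1.30 and −0.87 without it (6.48 ± 0.31, adjusted p = 2.05e-05). Iigp1 was at 6.48 and 6.43 against 1.01 and 1.06 untreated (5.42 ± 0.36, adjusted p = 0.00019), and Irgm1, a member that regulates the others, at 4.99 and 5.11 against 1.40 and 1.74 (3.48 ± 0.26, adjusted p = 0.000424). Tgtp1 and Tgtp2, near-identical copies, had the same untreated values of 0.01 and 0.28, and stood at 5.35 and 5.58 and at 5.35 and 5.23 with IFNG. Igtp and Irgm2 overlap on the annotation, Irgm2 standing at 6.09 and 6.42 with IFNG against 1.63 and 0.99 without it (4.95 ± 0.44, adjusted p = 0.00111). These 4 genes are uncertain as single genes because counting can have split their reads. F830016B08Rik, at 1.54 and 0.88 with IFNG, had both untreated libraries at their lowest value (−3.44 and −3.60). Untreated values on the lowest 3 steps of a library also occurred in Gm4841, Gm12250, Gm4951 and 9930111J21Rik2, so their folds rest on few reads. Among these, Gm4951 was lost without either IFNG library (adjusted p up to 0.126), F830016B08Rik in 8 of 18 alternatives (up to 0.309) and 9930111J21Rik2 in 12 of 19, the removal of any library but the first untreated one among them (up to 0.298). With a pseudocount of 1 added before the logarithm the log2 fold change of Gm4841 was 4.87, and in 16 of the 45 genes the fold was lower by over 1.5 times, so the folds of genes near the lowest values depend on that choice. The listed genes that did not pass were Gm12185, Gvin1, Gm4070 and Irgq, the last at 3.61 and 3.40 against 3.63 and 3.20 untreated. Gvin1 and Gm4070 had the same values as each other in every in vitro library (2.06 ± 0.53). Ifi47, a GTPase of the same family that was not on the list, rose too, to 3.85 and 4.07 against 0.38 and 0.99 untreated (3.27 ± 0.27, adjusted p = 0.000806).

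In antigen presentation Tap1 was the only listed gene past the threshold. Tap1, a subunit of the transporter that carries peptides to MHC class I molecules, stood at 6.16 and 6.16 with IFNG against 4.01 and 4.08 without it (2.11 ± 0.16, adjusted p = 0.000503), and overlaps Psmb9. It was the 1 of 8 peptide loading genes to pass (median 0.24). The other subunit, Tap2, lay in the opposite direction, at 3.10 and 3.33 against 5.14 and 5.88 untreated, but it did not pass (−2.30 ± 0.74, adjusted p = 0.421). Tapbpl, a tapasin-related peptide editor, stood at 4.46 and 4.44 against 3.33 and 3.39 (1.09 ± 0.19, adjusted p = 0.0808). None of 14 MHC class I chains passed, and their median was −0.44. The classical heavy chain gene H2-K1 was at 8.99 and 8.84 with IFNG and at 8.77 and 8.89 without it, and its log2 change of 0.08 had a 95% interval of −0.45 to 0.62. The light chain gene B2m was at 8.04 and 7.87 against 7.97 and 8.20, with a change of −0.13 and an interval of −0.46 to 0.20. Of 8 immunoproteasome and PA28 genes none passed (median 0.19). The catalytic subunits Psmb9 and Psmb10 were highest, at 1.00 ± 0.22 and 0.82 ± 0.16 (adjusted p = 0.197 and 0.125), and Psmb8 stood at −0.28 ± 0.33. Only 2 of 11 MHC class II genes were measured, and neither passed.

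Of the chemokines, 2 of the 3 ligands of CXCR3, a chemokine receptor found on T cells, rose. Cxcl10 stood at 7.25 and 7.31 with IFNG against 4.71 and 4.53 without it (2.66 ± 0.26, adjusted p = 0.00198), and Cxcl9 at 2.58 and 2.74 against 0.52 and 0.28 (2.26 ± 0.23, adjusted p = 0.00208). Cxcl11, at 1.05 and 1.23 against −2.12 and −1.18, did not pass (2.79 ± 0.48, adjusted p = 0.0717), and its untreated values rest on few reads. The 7 other measured chemokines had a median of −1.04 and none passed. The neutrophil chemokine Cxcl1 was at 2.41 and 2.54 against 3.96 and 4.20 untreated (−1.61 ± 0.52, adjusted p = 0.43), and the monocyte chemokine Ccl2 at 5.64 and 5.30 against 6.43 and 6.92 (−1.21 ± 0.43, adjusted p = 0.435). The groups did not overlap in either, but the share of all tested genes without overlap was not counted.

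Of 11 immune checkpoint ligands Cd274 alone rose, and the list median was 0.03. Cd274, which encodes the PD1 ligand PD-L1, stood at 4.06 and 4.38 with IFNG against 1.01 and 1.69 without it (2.87 ± 0.38, adjusted p = 0.0136). Leaving out either IFNG library or the first untreated library ended this call, with an adjusted p of up to 0.128. Cd47, the signal against phagocytosis, was at 5.42 and 5.50 against 5.39 and 5.47, and Lgals3 at 7.03 and 6.98 against 7.03 and 7.01.

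Genes best known from type I interferon responses had a lower median than the GTPase lists. Of 42 measured members 39 had a positive log2 fold change and the median was 0.87, but 2 passed. The median over all tested genes was 0.04, and their share with a positive change was not counted. Rtp4, a receptor transporter family gene, stood at 5.87 and 5.69 with IFNG against 3.28 and 3.43 without it (2.42 ± 0.23, adjusted p = 0.00178), and Rsad2, which encodes viperin, at 6.62 and 6.72 against 5.73 and 5.51 (1.05 ± 0.15, adjusted p = 0.0273, and lost in 6 of 19 alternatives, with up to 0.27). Over all tested genes the median half-width of the 95% interval of a log2 fold change was 0.59. Oas1b, a 2'-5' oligoadenylate synthetase, was at 2.56 and 3.06 against 0.89 and 0.89 and did not pass (1.92 ± 0.34, adjusted p = 0.0808), nor did Samd9l (1.32 ± 0.22, adjusted p = 0.0539).

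Of 22 nucleic acid sensors and effectors 4 rose, 20 had a positive log2 fold change and the median was 0.71. Against this stands a median of 0.04 over all tested genes, whose share of positive changes was not counted. Of the 4, the interferon-inducible PYHIN genes Ifi203, Ifi204 and Ifi205 rose by 2.43 ± 0.29, 2.76 ± 0.41 and 1.91 ± 0.16, and their neighbour Ifi211, not on the list, by 1.90 ± 0.14. Ifi205 stood at 6.35 and 6.37 with IFNG against 4.60 and 4.31 without it. Samhd1, a dNTP hydrolase that restricts retroviruses, had the smallest fold of the 45, with 6.57 and 6.56 against 5.47 and 5.58 (1.04 ± 0.12, adjusted p = 0.00703, and up to 0.119 without 1 of the libraries compared). Ifi211 and Ifi203 overlap Mndal, which did not pass (1.55 ± 0.28, adjusted p = 0.0808). Ifi204 was lost in 9 of 19 alternatives, among them the removal of any 1 of the IFNG, untreated, TNF and supernatant libraries (adjusted p up to 0.281), and Ifi203 without either IFNG library or the second untreated one (up to 0.0747).

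Parp14, an ADP-ribosyltransferase, was the 1 of the 8 antiviral PARP and DTX3L genes to pass, at 5.72 and 5.73 with IFNG against 2.93 and 2.53 without it (2.99 ± 0.22, adjusted p = 0.000424). Dtx3l and Parp9, which encode a ligase and its partner, stood at 1.36 ± 0.22 and 1.28 ± 0.23 (adjusted p = 0.0539 and 0.0772). All 19 TRIM, RNF and nuclear body genes had a positive log2 fold change, with a median of 0.73, against 0.04 over all tested genes. How many of all tested genes were positive was not counted. The ubiquitin ligase Rnf19b passed, at 6.88 and 6.89 against 5.49 and 5.43 (1.43 ± 0.17, adjusted p = 0.00604). Without any 1 of the 4 libraries compared Rnf19b did not pass (up to 0.0879). Apol6, of the apolipoprotein L family, was the 1 of 17 metabolic and redox effectors to pass, at 2.98 and 3.03 against −0.27 and −1.18 (3.73 ± 0.45, adjusted p = 0.00751), and it was lost without either IFNG library or the second untreated one (up to 0.0975).

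Of the 45 genes 9 are on none of these lists. Besides Ifi211, Ifi47 and Gm43302 they include Cyp26b1, Irak2, Tubb3, Crem and Olfr56. Cyp26b1, which degrades retinoic acid, stood at 6.17 and 6.44 with IFNG against 4.29 and 3.86 without it (2.23 ± 0.20, adjusted p = 0.00111). Irak2, a kinase of IL-1 and Toll-like receptor signalling, stood at 3.90 and 3.85 against 0.66 and 0.99 (3.05 ± 0.28, adjusted p = 0.00149). Cyp26b1 and Irak2 were kept in every alternative run. Tubb3, a beta tubulin best known from neurons, stood at 4.78 and 4.18 against 1.01 and 1.88 (3.03 ± 0.37, adjusted p = 0.00751), and was lost without the first IFNG or the first untreated library (up to 0.101). Crem, a regulator of cAMP responses, stood at 3.15 and 3.08 against 1.40 and 1.38 (1.73 ± 0.24, adjusted p = 0.021), and was lost without any 1 of the libraries compared or the first TNF library (up to 0.254). Olfr56 is annotated across Tgtp1, Tgtp2 and Ifi47, and whether counting separated their reads is not known, since the use of strand is not stated. It stood at 2.14 and 1.57 with IFNG against −2.12 and −2.34 without it, and was lost without the first IFNG library (adjusted p = 0.0895) and with a pseudocount of 1.

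No member of the death receptor, apoptosis and pyroptosis list (32 genes, median 0.16), of the NF-kB targets (28, median 0.03) or of the adhesion and cytokine genes (16, median 0.24) passed. Tnfsf10, which encodes the death ligand TRAIL, was at 0.66 and −0.10 with IFNG against −2.12 and −3.60 without it, both on the lowest 3 steps of their libraries, and did not pass (adjusted p = 0.268). Gsdmd, the pore-forming protein of pyroptosis, was at 2.41 and 2.57 against 1.32 and 1.38 (1.14 ± 0.23, adjusted p = 0.156).

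**Figure D3:**
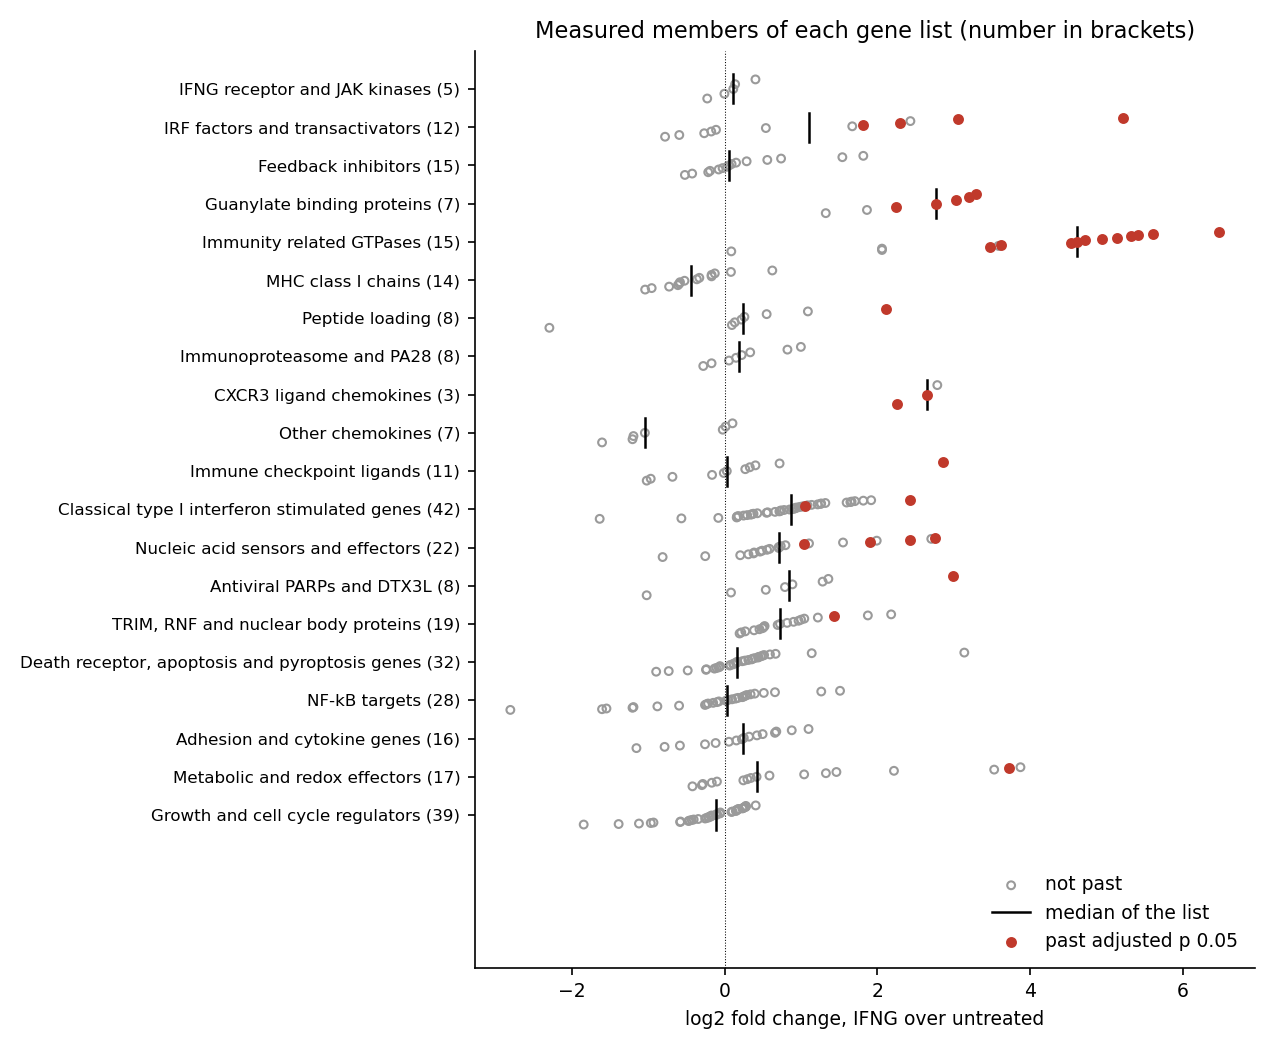
Log2 fold change of IFNG over untreated for each measured member of 20 gene lists, filled red where the gene passed the threshold, with the list median as a black bar. The medians of the immunity related GTPases (4.62), the guanylate binding proteins (2.77) and the CXCR3 ligand chemokines (2.66) stand far to the right. That of the MHC class I chains (−0.44) lies to the left of 0. The lists were chosen with earlier results of these data known.

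Many called genes are neighbours. Of the 45, 27 lie within 500 kb of another in 8 groups on the GRCm38 annotation. The share of all tested genes with such a neighbour was not counted. Each interval below runs from the first to the last called gene of a group, so its outermost genes are called by construction. Some members overlap, as Igtp and Irgm2 do, and may share reads. On chromosome 11, 6 of the 8 tested genes between 48861968 and 49135387 rose (Irgm1, Olfr56, Tgtp1, 9930111J21Rik2, Tgtp2 and Ifi47), as did all 3 between 58187739 and 58222782 (Gm12250, Igtp and Irgm2). On chromosome 18 all 4 tested genes between 60212080 and 60392634 rose (Gm4951, Gm4841, F830016B08Rik and Iigp1), and on chromosome 3 all 4 between 142530342 and 142638008 (Gbp7, Gbp3, Gbp2b and Gbp2). On chromosome 1, 4 of 6 tested genes between 173747293 and 174031810 rose, the PYHIN genes Ifi204, Ifi211, Ifi203 and Ifi205. Cxcl9 and Cxcl10 lie together on chromosome 5, between 92321347 and 92348889. Among the others, Irf1 lies alone on chromosome 11 (53770014 to 53778374, plus strand), Tap1 on chromosome 17 (34187553 to 34197225, plus strand) and Cd274 on chromosome 19 (29367455 to 29388095, plus strand).

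No gene was lower past the threshold, although 621 genes were at least 2-fold lower and 403 at least 2-fold higher. The 10 lower genes with the smallest p-values were Bnip3l-ps, Myc, Rpl35a-ps6, Gm12396, Trim8, Bin1, Dctd, Gm11930, Pex13 and Pim1, with adjusted p between 0.0543 and 0.174. Of these Rpl35a-ps6 passed with a pseudocount of 1 (adjusted p = 0.016). Myc, the growth-promoting transcription factor, was at 1.54 and 1.44 with IFNG against 3.03 and 3.64 without it (−1.85 ± 0.32, adjusted p = 0.0752). Pim1, a kinase gene, was at 0.38 and −0.10 against 1.56 and 2.18 (−1.73 ± 0.37, adjusted p = 0.174), and Trim8 at 2.32 and 2.16 against 3.35 and 3.64 (−1.25 ± 0.25, adjusted p = 0.137). Of 39 growth and cell cycle regulators none passed, and their median was −0.11. The largest fold of all, 7.49 ± 3.13 in Gm6822, did not pass either (adjusted p = 0.452). This gene, chosen after its values were seen, was at 7.33 and 8.85 with IFNG against 0.21 and 0.99 without it, but also at 9.01 and 0.38 with TNF and at −0.76 and 8.63 with supernatant.

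The count of lower genes depends on the libraries that set the spread. With only the IFNG and untreated libraries fitted, 480 genes passed, 116 higher and 364 lower, and 44 of the 45 were among the 116. Among the 364 were Cep55, a cytokinesis gene, Cox7c, a respiratory chain subunit, Tmsb4x, an actin-binding peptide, the replication helicase subunit Mcm4, Cdk2, Tap2 and Myc. Both the IFNG and the untreated libraries chose these genes, so values relative to the untreated mean lean below 0 in any other library and are given as a description. The median of the 364 genes was −1.07 and −0.99 in the IFNG libraries. It was −1.58 and −0.72 with TNF + IFNG, and −0.42 and −0.78 with TNF. In the 2 supernatant libraries it was −0.03 and −1.18. Of the 364 genes 358, or 98.4%, were lower in the second supernatant library than in the first, against 45.3% of all tested genes. Cep55, for example, was at 4.71 and 4.79 with IFNG, at 6.37 and 4.50 in the first and the second supernatant library, and at 6.23 and 6.37 without treatment. Cox7c was at 6.95 and 7.26 with IFNG, at 9.02 and 6.09 with supernatant and at 8.86 and 9.07 without treatment. The median difference between the second and the first supernatant library was −1.12 over the 364 genes, 0.20 over the 116 higher genes of the same fit and 0.05 over all tested genes. Neither supernatant library was used to choose them. What sets the 364 genes apart between libraries was not tested.

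**Figure D4:**
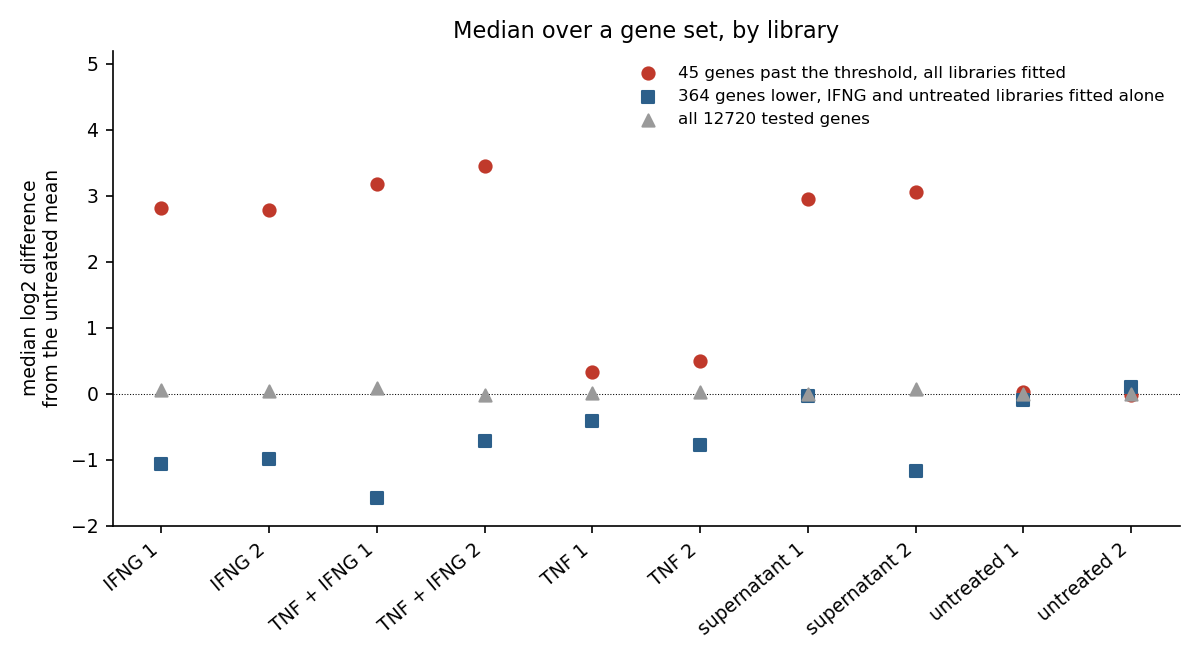
Median log2 difference from the untreated mean in each of the 10 libraries, for the 45 genes (red circles), for the 364 genes lower when only IFNG and untreated libraries were fitted (blue squares) and for all tested genes (grey triangles). The red points lie at 2.78 to 3.45 in every library given IFNG or supernatant, whereas the blue points of the 2 supernatant libraries differ, at −0.03 and −1.18.

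The effect of IFNG could be read a second time in cells that also had TNF, since TNF + IFNG against TNF uses 4 other libraries, though one estimate of the spread served both. There 50 genes were higher (0.393% of those tested) and 3 lower (0.0236%). Of the 45 genes 37 passed, which is 82.2% of the 45 and 74% of the 50. In all 45 the log2 fold change was positive, with a median of 2.53 against −0.01 over all tested genes. The 8 that did not pass were 9930111J21Rik2, Gm4951, Ifi204, Nlrc5, Rnf19b, Rsad2, Rtp4 and Samhd1. Igtp, with 6.49 and 6.40 under TNF + IFNG against 2.00 and 2.36 under TNF, had a log2 fold change of 4.26 there and of 4.62 without TNF. Cd274, with 4.53 and 4.80 against 1.94 and 1.63, had 2.88 and 2.87.

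The difference between the IFNG effect with and without TNF was tested directly and passed in 2 genes, 1 in each direction (0.00786% of genes each). Cxcl9 rose more with TNF present, by 6.41 ± 0.23 on the log2 scale against 2.26 ± 0.23 without it. It stood at 6.15 and 6.11 with TNF + IFNG, at −0.40 and −0.16 with TNF alone, at 2.58 and 2.74 with IFNG and at 0.52 and 0.28 without treatment. Irf1 rose less with TNF present, by 0.98 ± 0.12 against 3.06 ± 0.12. Its level was 10.47 and 10.53 with TNF + IFNG against 9.60 and 9.44 with TNF alone. The other 43 genes did not pass this test, and their differences ran from −1.62 to 1.37 (median over the 45, −0.39). Parp14 and Rtp4 stood at −1.32 and −1.21 and Apol6 and Iigp1 at 1.37 and 1.32, with adjusted p = 0.962 for each. At an unadjusted p under 0.05 the difference was positive in 229 genes and negative in 271. Both calls were lost without the first IFNG or the first untreated library, where 0 genes passed, and the Irf1 difference did not pass without the intensity trend.

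**Figure D5:**
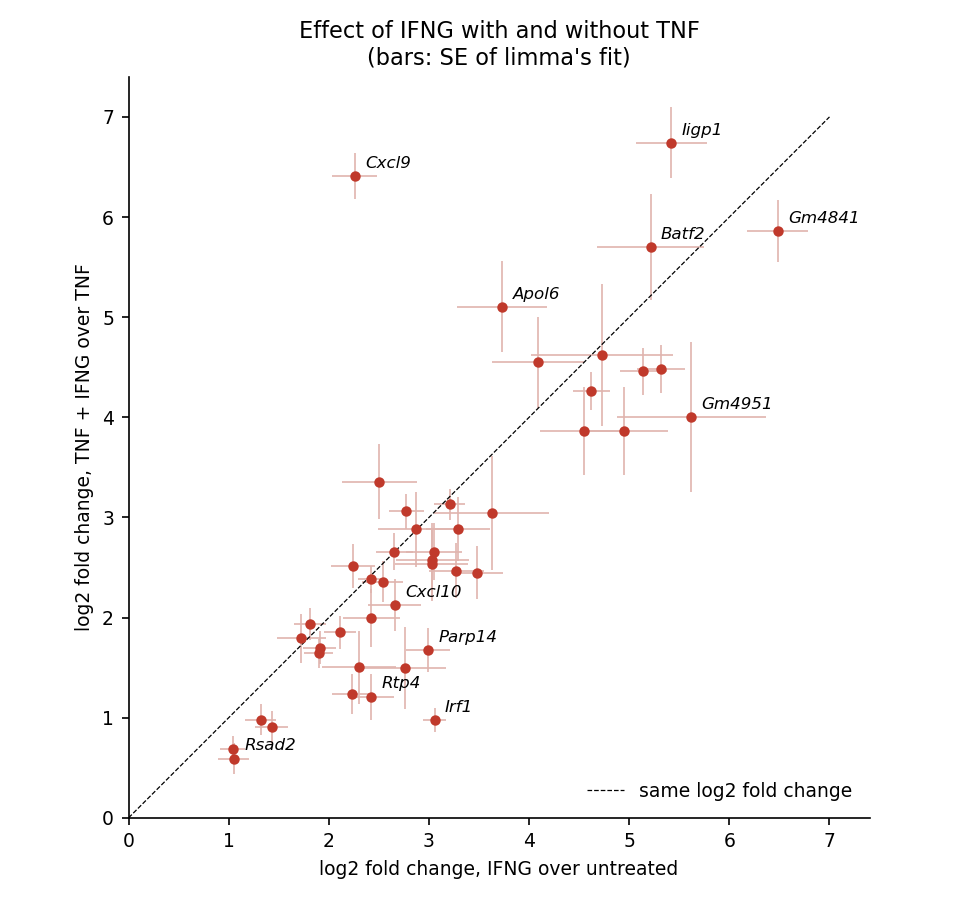
Log2 fold change of TNF + IFNG over TNF (vertical) against IFNG over untreated (horizontal) for the 45 genes, with the SE of each fit as bars and the line of equal change dashed. Cxcl9 lies far above the line (6.41 against 2.26) and Irf1 below it (0.98 against 3.06).

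Genes raised by IFNG in the presence of TNF but not past the threshold alone included Cxcl11, Psmb9, Parp9, Mndal and Gm12185, which were also positive without TNF. Ubd, a ubiquitin-like modifier, was at 3.22 and 3.49 with TNF + IFNG against −0.16 and −0.44 with TNF alone, and at 0.61 and 0.55 with IFNG against −0.27 and −1.18 untreated. The difference between the effects with and without TNF did not pass in these genes, so they are not shown to depend on TNF.

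Set directly against TNF, with which it shares the IFNG libraries of the main comparison, IFNG gave 40 higher genes (0.314%) and 29 lower ones (0.228%). Genes with the smallest p-values among the higher ones included Igtp, Gm4841, Iigp1, Tgtp1, Gbp7, Tgtp2, Stat2, Gbp2 and Cxcl9, with log2 differences of 2.38 to 7.10. Those lower with IFNG than with TNF were led by Nfkbia, Ier3, Hivep1, Nfkbie, Ccl2, Stx11, Ankrd33b, Cxcl1, Ccl7 and Vcam1, many of them known NF-kB targets. Nfkbia, the inhibitor of NF-kB, stood at 7.73 and 7.63 with IFNG against 11.28 and 11.18 with TNF. Of the 45 genes 36 were past the threshold as higher with IFNG than with TNF, and 9 did not pass. Those with the least margin were Rnf19b (−0.01 ± 0.17), at 6.88 and 6.89 with IFNG against 6.86 and 6.92 with TNF, Rsad2 (0.17), Cxcl10 (0.48) and Irf1 (0.59, adjusted p = 0.103). The others were Gbp2b (0.90), Parp14 (0.92), Nlrc5 (1.34), Gbp4 (1.72) and 9930111J21Rik2 (3.26, adjusted p = 0.0535). For Cxcl10 the 95% interval of the difference between IFNG and TNF was −0.12 to 1.07.

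Supernatant of the co-culture, whose treatment time is not recorded, differed from IFNG in 1 gene that was higher (0.00786%) and in no gene that was lower (0%), and at an unadjusted p under 0.05 in 164 higher and 182 lower genes. The gene was the zinc exporter Slc30a1, at 5.17 and 5.25 with supernatant against 3.37 and 3.48 with IFNG (1.78 ± 0.17, adjusted p = 0.0371), and at 3.63 and 3.58 untreated. None of the 45 passed, and their log2 differences ran from −0.58 in Ifi204 to 0.68 in Cxcl10. Irf1 was at 10.21 and 10.27 with supernatant against 10.08 and 10.15 with IFNG, with a 95% interval of the difference of −0.14 to 0.40. For Cxcl10, at 8.34 and 7.57 against 7.25 and 7.31, it was 0.08 to 1.27. The 2 comparisons share the IFNG libraries, and with supernatant against IFNG the count was 0 to 12 when single libraries were left out.

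In the co-culture table the genes were read in other libraries, from MC38 with OT1 T cells and isotype antibody against MC38 alone. There 971 of 12707 genes were higher (7.64%) and 790 lower (6.22%). Library 3 of MC38 alone stands apart, with the lowest implied depth, 3730000 reads. Its summed level of 14 T cell markers was 61.3 CPM, against 21.7 and 5.76 CPM in the other 2 and 163 to 205 CPM in the isotype libraries. Single markers differed in this. Cd3d was at 2.19 in library 3, against −1.63 and −2.66 in the other 2 and 2.28, 1.45 and 2.50 with isotype antibody. Cd8a was at 1.75, against −2.58 and −2.66 in the other 2 and 2.11, 2.41 and 2.13 with isotype antibody. Ifng was at 1.85 in library 3, against 6.27, 6.51 and 6.66 with isotype antibody. All 45 genes were higher in co-culture, by 0.62 to 8.82 on the log2 scale with a median of 3.40. All 45 passed without library 3 of MC38 alone too (median 3.59). Cyp26b1 was lost without library 1 or 2 of MC38 alone, or library 1 or 3 with isotype antibody (adjusted p up to 0.105). Cxcl10 stood at 11.31, 11.29 and 11.10 in co-culture against 4.96, 4.77 and 5.66 alone, and Cxcl9 at 9.07, 9.35 and 9.08 against −1.03, 0.03 and 2.04. Batf2 stood at 5.76, 5.56 and 5.74 against −1.03, −0.52 and −0.34. Irf9 stood at 7.15, 7.03 and 7.10 against 6.54, 6.55 and 6.32. The groups did not overlap in any of these genes, but the share of all genes without overlap was not counted. The isotype libraries hold transcripts of T cell markers such as Cd8a. A change in the tumour cells and a share of T cell RNA therefore cannot be told apart, nor can fewer cells of a type and less RNA per cell. Levels in this table cannot be set against those in vitro.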

How the data were processed

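The authors deposited log2 CPM values per gene, in 1 table of MC38 cells treated in vitro and 1 of co-cultures, normalized separately. Per the submitters' processing notes the tools include HISAT2, Subread's featureCounts, cutadapt 1.7, FastQC and limma, and the builds are given as GRCm38 and mm10. The use of strand in counting is not stated in the sources used. Every library has nearly the same distribution of values, so levels are relative within a library, and no count test was run. Implied depths were 3360000 to 11200000 reads per library in vitro.

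From these values limma 3.58.1 in R 4.3.3 was run with an intensity trend and all groups of a table in 1 fit. P-values were 2-sided and Benjamini-Hochberg adjusted over all genes, with a threshold of 0.05. Genes needed a log2 value of 0 or more in 2 libraries in vitro and in 3 in co-culture, and 1 gene with a constant value was left out. Folds are on the deposited log2 scale. The fit was tested on simulated data. Genes named are those past the threshold, the 10 lower genes with the smallest p-values, up to 10 each way in the other in vitro comparisons, and members of the gene lists. Members and lists were chosen with earlier results of these data known. Promoters are from RefSeq (GRCm38.p6). In 15 gene names the symbol had become a date, and these are not named. One further gene and the results that rest on it are not reported here. One anti-PD1 co-culture library has labels that disagree on its treatment. The description of 1 isotype library reads OT2 where those of the others read OT1, and its title and treatment name only the isotype. The anti-PD1 libraries served only to estimate the spread.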

Additional observations from a re-analysis of the deposited data

Results flagged for a closer look

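The effect of IFNG differed with and without TNF in 2 genes by a test of the difference itself (limma, adjusted p = 0.00492 for each). For Cxcl9 the log2 fold change with TNF was higher by 4.15 than that without it. The gene stood at 6.15 and 6.11 with TNF + IFNG against −0.40 and −0.16 with TNF, and at 2.58 and 2.74 with IFNG against 0.52 and 0.28 untreated. For Irf1 the difference was −2.08, with 10.47 and 10.53 with TNF + IFNG against 9.60 and 9.44 with TNF, and 10.08 and 10.15 with IFNG against 7.04 and 7.07 untreated. Without the first IFNG library or without the first untreated library 0 genes passed, and without the intensity trend the Irf1 difference did not pass.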

How the results depend on the processing

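The 45 genes kept their direction in each of the 854 gene and alternative pairs computed. IFNG against untreated gave 297 genes with library weights (175 higher, 122 lower) and 480 with only the groups compared, and 29 to 50 when single libraries were left out, the lowest without the first IFNG library (28 higher, 1 lower). TNF + IFNG against TNF, with 53 genes, gave 16 with only the groups compared and 37 to 256 with single libraries left out, the highest without the first TNF + IFNG library (104 higher, 152 lower). The difference of the effects, with 2 genes, gave 1 without the intensity trend (1 higher, 0 lower) and 0 to 9 with single libraries left out. IFNG against TNF, with 69 genes, gave 172 with library weights (78 higher, 94 lower) and 37 to 76 with single libraries left out. Supernatant against IFNG, with 1 gene, gave 0 without the trend, 0 with the replicate block, 2 with only the groups compared and 0 to 12 with single libraries left out. The co-culture count of 1761 ranged from 1006 to 2223, with the lowest without isotype library 3. The cause of these shifts was not tested.

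The labels do not pair libraries by number, and the deviations of same-numbered IFNG and untreated libraries correlated at 0.027. With the replicate block 42 genes passed, 40 of them among the 45. With 2 libraries a group, leaving 1 out assumes that the lone library varies like the other groups. Depth limits the genes whose untreated libraries lie at the lowest values.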
